A study of Mus musculus with 20 samples.

Results

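The 10 genes described here are those in which inherited variants cause or predispose to pulmonary arterial hypertension in patients, and they were taken by name: Bmpr2, Acvrl1, Eng, Smad9, Cav1, Kcnk3, Tbx4, Eif2ak4, Aqp1 and Atp13a3. All 10 were found among the 30558 different gene names of the deposited table, and all 10 passed the filter on low values. Their RNA was measured by sequencing in whole lungs of mice in 4 groups. VIPKO mice, in which the gene of vasoactive intestinal peptide is targeted, breathed 10% oxygen (VIPKO hypoxia, 5 libraries) or 21% oxygen (VIPKO normoxia, 4 libraries) for 4 weeks. Wild-type C57BL/6 mice (WT) breathed 10% oxygen (WT hypoxia, 5 libraries) or 21% oxygen (WT normoxia, 6 libraries) for the same 4 weeks. Age was not given in the sources used here, nor whether each library came from its own animal, so that p-values measure the spread between these libraries, which may be technical.

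Pulmonary arterial hypertension is a narrowing of the small lung arteries that raises the pressure against which the right heart works, and mice kept in low oxygen develop a milder form of it. Several of its genes belong to 1 signalling route of the endothelium. Bone morphogenetic proteins (BMPs) in the blood bind a complex of the type II receptor BMPR2, the type I receptor ALK1 (gene Acvrl1) and the co-receptor endoglin (gene Eng), and the complex phosphorylates SMAD1, SMAD5 and SMAD8 (gene Smad9), which then act in the nucleus. The other genes serve the cell membrane (Cav1, Kcnk3, Aqp1, Atp13a3), the patterning of lung mesenchyme (Tbx4) and the response to amino acid shortage (Eif2ak4).

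Some facts of the whole series bear on every result. For the VIPKO samples, 1 label field speaks of a knockdown and the titles of a knockout. The signal of Vip itself was highest, at 106, in the library labelled VIPKO hypoxia 4, next highest, at 93.0, in WT normoxia 5, and at most 12.7 in the other libraries of both genotypes, so that Vip did not bear out the genotype labels, and VIPKO here means only that a library is labelled so. Without the library labelled VIPKO hypoxia 4, the calls of Eng and Acvrl1 below and of Aqp1 for hypoxia in VIPKO held, and that of Aqp1 in VIPKO normoxia against WT normoxia was lost (adjusted p = 0.0544). The summed signal of mt-Rnr1 and mt-Rnr2, the ribosomal RNAs of mitochondria, was 4506 to 9415 in VIPKO hypoxia and 12034 to 27208 in VIPKO normoxia, against 396 to 7058 in WT hypoxia and 97.7 to 2075 in WT normoxia, and its part in the genotype differences was not tested. On the first principal component (21.0% of the variance) VIPKO normoxia 2 and 3 and VIPKO hypoxia 2 lay lowest (-75.4 to -59.2; the next library -33.6). VIPKO hypoxia 3 lay highest, at 76.2. WT normoxia libraries ran from -33.6 to -8.13 on this component and WT hypoxia libraries from 18.5 to 58.9. Skeletal muscle markers summed to 34709 in WT hypoxia 5 and thymus markers to 16916 in VIPKO hypoxia 3. Markers of other lung cells moved with the same comparisons as the genes below: airway markers were called higher for 5 of 6 genes in VIPKO normoxia and 4 of 6 in WT hypoxia, and macrophage markers for 3 of 5 in each, all against WT normoxia. In WT hypoxia 4 of 5 alveolar type 2 markers and 5 of 5 adipocyte markers were also higher. The airway sum was 195694 to 322438 in VIPKO hypoxia, 235813 to 417875 in VIPKO normoxia, 154390 to 382719 in WT hypoxia and 143037 to 199127 in WT normoxia, and the part of these markers in the results was not tested. Estimated depth was 4.96 M to 56.7 M reads, though the estimate for VIPKO hypoxia 2 (56.5 M) may be too low. The fewest reads behind a value of the 10 genes were about 98 (Smad9, signal 381, in WT hypoxia 4). Counting error was there about 10.1%, beside a spread of 13.2% (SD over mean) in that group, and for Eif2ak4, with about 168 reads in the same library, 7.72% beside 8.96%. For the other 8 genes counting error was at most 4.83% in any library (Kcnk3).

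The 10 genes differed widely in level. On a scale of signal per kilobase of exon, averaged over all 20 libraries, Aqp1 was highest at 6023 ± 1190 (SD, n = 20), and Cav1 followed at 4698 ± 594. Acvrl1 (2409 ± 418), Eng (1852 ± 607) and Bmpr2 (1422 ± 250) came next. Atp13a3 (616 ± 115), Tbx4 (472 ± 73.5) and Kcnk3 (240 ± 102) were lower, and Eif2ak4 (82.8 ± 8.32) and Smad9 (79.7 ± 11.7) were lowest. The neighbouring pairs Acvrl1 and Eng, Eng and Bmpr2, and Eif2ak4 and Smad9 differed by less than the larger of their SDs. Eng and Kcnk3 had the widest spread for their level.

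**Figure D1:**
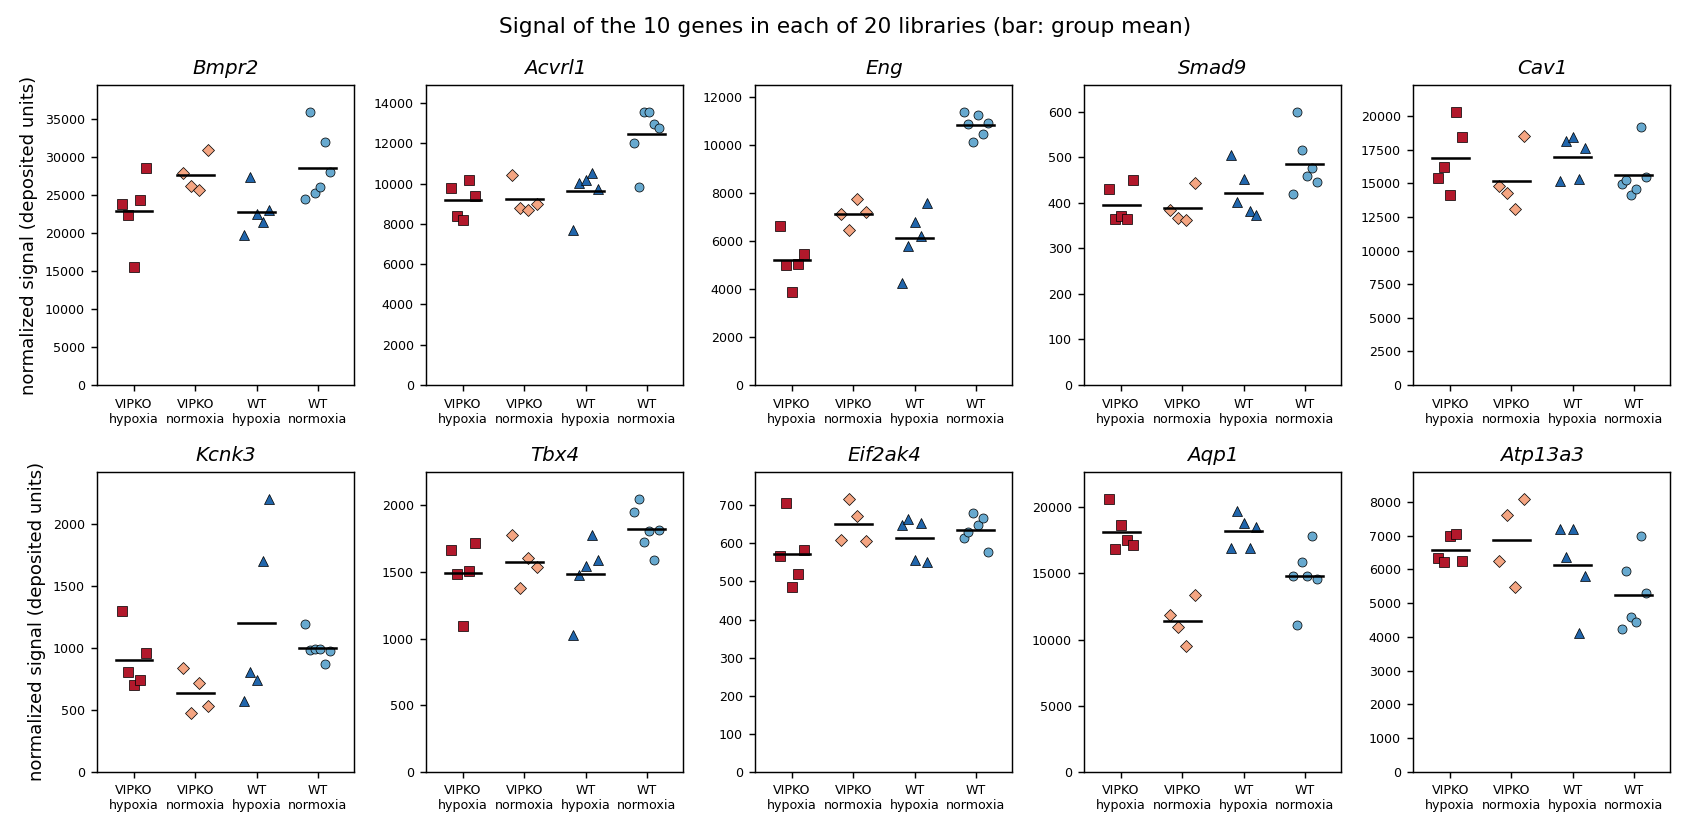
Normalized signal (deposited units, linear axis from 0) of each of the 10 genes in every library, in VIPKO hypoxia (squares), VIPKO normoxia (diamonds), WT hypoxia (triangles) and WT normoxia (circles), with a bar at the group mean. Eng in WT normoxia (10121 to 11347) lies above every other library, Aqp1 is lowest in VIPKO normoxia (9539 to 13361), and Kcnk3 has 2 high libraries in WT hypoxia (1702 and 2202).

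Eng, Acvrl1 and Aqp1 carried all the changes that passed the test. In VIPKO normoxia against WT normoxia 3 of the 10 genes were lower (Eng, Acvrl1, Aqp1), where 3.96% of the 21658 genes tested were called lower and 8.65% were called in either direction. In WT hypoxia against WT normoxia 2 were lower (Eng, Acvrl1), where 6.77% of all genes were called lower and 14.7% in either direction. In VIPKO hypoxia against VIPKO normoxia 1 was higher (Aqp1), where 0.614% were called higher and 0.997% in either direction. With limma 0 of 10 were called in VIPKO hypoxia against WT hypoxia, where 1.62% of all genes were called. The smallest unadjusted p of the 10 there was 0.0933 (Eng). Library weights also called 0 of 10 there, where 1926 of all genes were called. In VIPKO hypoxia against WT normoxia 2 were lower (Eng, Acvrl1), where 5.91% of all genes were called lower and 12.3% in either direction, and in VIPKO normoxia against WT hypoxia 1 was lower (Aqp1), where 6.47% were called lower and 11.8% in either direction. Without VIPKO normoxia 2 and 3 and VIPKO hypoxia 2, none of the 10 and none of all genes tested was called in the 2 comparisons of VIPKO normoxia with WT. The comparisons against WT normoxia share its 6 libraries, and the median log2 fold change of the 10 genes was -0.26 for VIPKO normoxia against WT normoxia and -0.13 for WT hypoxia against WT normoxia, beside 0.01 and -0.01 over all genes tested.

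**Figure D2:**
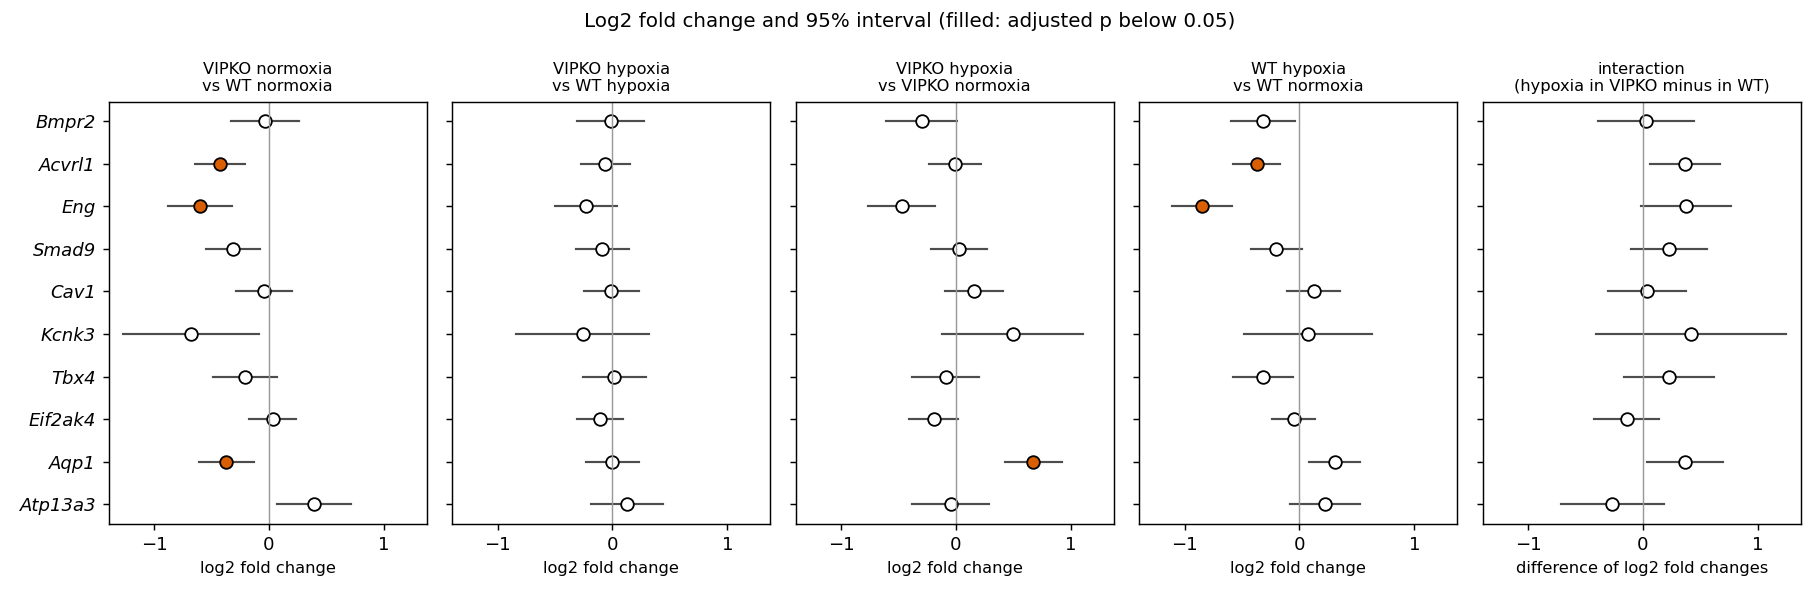
Log2 fold change of each gene (dot) with its 95% interval (line) in 4 comparisons, and in the last panel the difference between the hypoxia effects of VIPKO and WT; filled dots passed an adjusted p of 0.05 in limma's test. Eng and Acvrl1 are filled for VIPKO normoxia and for WT hypoxia, each against WT normoxia, Aqp1 is filled for both comparisons that involve VIPKO normoxia, and no dot is filled for VIPKO hypoxia against WT hypoxia or for the interaction.

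The stretches just upstream of the 2 genes with the clearest changes are shown here, because low oxygen acts on many genes through a factor (HIF) that recognises the letters ACGTG or GCGTG. A window of Cav1, which passed the test in no comparison, is shown beside them as one that holds such a match. Each is the 250 bases before the RefSeq gene start in GRCm38.p6, plus strand, 5′ to 3′, with any match to ACGTG or GCGTG on either strand in capitals.
Eng, chr2:32646345-32646594: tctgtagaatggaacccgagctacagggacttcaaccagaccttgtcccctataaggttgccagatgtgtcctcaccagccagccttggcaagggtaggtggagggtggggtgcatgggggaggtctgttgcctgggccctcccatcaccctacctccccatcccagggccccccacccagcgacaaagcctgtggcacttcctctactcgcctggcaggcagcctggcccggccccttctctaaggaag
Aqp1, chr6:55336049-55336298: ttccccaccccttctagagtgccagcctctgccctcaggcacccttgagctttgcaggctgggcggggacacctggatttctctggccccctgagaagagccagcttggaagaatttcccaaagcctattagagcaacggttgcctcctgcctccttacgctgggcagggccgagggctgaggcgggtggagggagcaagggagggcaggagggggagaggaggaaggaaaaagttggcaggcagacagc
Cav1, chr6:17306085-17306334: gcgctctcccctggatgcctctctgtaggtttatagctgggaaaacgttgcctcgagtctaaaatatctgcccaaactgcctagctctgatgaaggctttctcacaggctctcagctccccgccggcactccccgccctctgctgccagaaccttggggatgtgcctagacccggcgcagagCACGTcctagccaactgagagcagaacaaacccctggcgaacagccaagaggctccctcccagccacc
Neither the Eng nor the Aqp1 window held ACGTG or GCGTG, and the Cav1 window shown held 1 ACGTG, read on the minus strand as CACGT, while the other of its 2 RefSeq windows held none. Eif2ak4, Smad9 and Tbx4 also had a window with GCGTG, so that 4 of the 9 windows of the 7 genes with windows held a match. Of 32851 RefSeq windows of this length, 16.6% held ACGTG, 28.2% held GCGTG and 38.6% held at least 1 of them. A match is a description of letters and not a binding site, and 7 of the 10 genes had a window in the RefSeq table.

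Eng, the gene of the BMP co-receptor endoglin (chromosome 2, 32646595 to 32682669, plus strand), was the gene with the largest changes that passed the test. Its signal in VIPKO hypoxia libraries 1 to 5 was 6624, 5010, 3861, 5033 and 5458, against 7104, 6444, 7741 and 7202 in VIPKO normoxia libraries 1 to 4. WT hypoxia libraries 1 to 5 had 4257, 5797, 6764, 6200 and 7581, and the 6 WT normoxia libraries had 10121 at the lowest, 10885 in the median and 11347 at the highest. Every library of the other 3 groups therefore lay below every WT normoxia library, while those 3 groups overlapped one another. Against WT normoxia, 2 of the 10 genes did not overlap in VIPKO normoxia (Eng and Kcnk3, both lower), 1 in WT hypoxia and 1 in VIPKO hypoxia (Eng). Of all genes, 5.13%, 3.81% and 4.01% were lower without overlap in these comparisons, and 9.87%, 7.94% and 8.25% did not overlap in either direction. The mean was 5197 ± 994 (SD, n = 5) in VIPKO hypoxia, 7123 ± 532 (n = 4) in VIPKO normoxia, 6120 ± 1238 (n = 5) in WT hypoxia and 10814 ± 466 (n = 6) in WT normoxia.

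On the log2 scale (signal plus 1), Eng fell by 0.60 ± 0.13 (SE) in VIPKO normoxia against WT normoxia, a signal 1.52-fold lower (limma, adjusted p = 0.0115). It fell by 0.85 ± 0.13 in WT hypoxia against WT normoxia, 1.80-fold lower (adjusted p = 0.00124), and by 1.08 ± 0.13 in VIPKO hypoxia against WT normoxia, 2.11-fold lower (adjusted p = 2.79e-05). The difference of VIPKO hypoxia from VIPKO normoxia was -0.47 ± 0.14 (adjusted p = 0.128), and that from WT hypoxia was -0.23 (95% interval -0.50 to 0.04, adjusted p = 0.352). The call in hypoxic WT lungs held with each of the 20 libraries left out in turn. The call in normoxic VIPKO lungs was lost without VIPKO normoxia 2 (adjusted p = 0.0583) and without the 3 libraries low on the first component (-0.60, adjusted p = 0.175), where the size stayed and only 2 VIPKO normoxia libraries remained. Exons of the gene share 61 bases, or 1.51%, with the opposite-strand gene Fpgs, and the strand used in counting is not given in the sources used here.

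Acvrl1, the gene of the endothelial type I receptor ALK1 (chromosome 15, 101128522 to 101145336, plus strand), changed in the same comparisons by less. Its signal was 9764, 8371, 8173, 10187 and 9381 in VIPKO hypoxia libraries 1 to 5, and 10442, 8765, 8700 and 8966 in VIPKO normoxia libraries 1 to 4. WT hypoxia libraries 1 to 5 had 7677, 10017, 10166, 10500 and 9725, and WT normoxia had 9849 at the lowest, 12855 in the median and 13540 at the highest. The groups overlapped because WT normoxia 2, at 9849, lay within the range of the other groups, while the other 5 WT normoxia libraries lay above all of them. Acvrl1 fell by 0.43 ± 0.10 in VIPKO normoxia against WT normoxia (1.35-fold lower, limma adjusted p = 0.0183), by 0.37 ± 0.10 in WT hypoxia against WT normoxia (1.29-fold lower, adjusted p = 0.0192) and by 0.44 ± 0.10 in VIPKO hypoxia against WT normoxia (1.35-fold lower, adjusted p = 0.00779). Within VIPKO, the difference of hypoxia from normoxia was -0.01 (95% interval -0.23 to 0.22). The call in normoxic VIPKO lungs was lost without VIPKO normoxia 2, 3 or 4 (adjusted p = 0.0759, 0.0548 and 0.0660), and that in hypoxic WT lungs without WT hypoxia 1 (adjusted p = 0.0574). Exons of Acvrl1 share 127 bases, or 2.98%, with an opposite-strand gene model.

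Bmpr2, the type II receptor gene mutated in most families with the disease (chromosome 1, 59763400 to 59879014, plus strand), did not pass the test in any comparison. Its mean signal was 22938 ± 4733 (SD, n = 5) in VIPKO hypoxia, 27717 ± 2389 (n = 4) in VIPKO normoxia, 22848 ± 2820 (n = 5) in WT hypoxia and 28618 ± 4476 (n = 6) in WT normoxia. All 4 ranges overlapped. For VIPKO normoxia against WT normoxia the log2 difference was -0.04 (95% interval -0.33 to 0.26), and for VIPKO hypoxia against WT hypoxia it was -0.01 (-0.31 to 0.28). The hypoxia differences were -0.30 ± 0.15 in VIPKO (limma adjusted p = 0.408) and -0.32 ± 0.13 in WT (adjusted p = 0.105). The difference in WT was called after quantile normalization (-0.44, adjusted p = 0.0203) and without VIPKO hypoxia 3 (adjusted p = 0.0455), the library with the lowest Bmpr2 signal, 15534. VIPKO hypoxia differed from WT normoxia by -0.33 ± 0.13 (adjusted p = 0.107). That difference was called in 1 of 33 alternative fits (adjusted p = 0.00771).

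Smad9, which codes for the signal carrier SMAD8 (chromosome 3, 54755582 to 54801257, plus strand), also passed in no comparison. Its signal was 364 to 450 in VIPKO hypoxia, 362 to 442 in VIPKO normoxia, 372 to 505 in WT hypoxia and 420 to 599 in WT normoxia. The log2 differences from WT normoxia were -0.29 ± 0.11 for VIPKO hypoxia (limma adjusted p = 0.0733), -0.32 ± 0.11 for VIPKO normoxia (adjusted p = 0.0838) and -0.20 ± 0.11 for WT hypoxia (adjusted p = 0.189). Each of the first 2 was called in 1 of 33 alternative fits (adjusted p = 0.0401 and 0.0363). Smad1 and Smad5, the other BMP SMAD genes, had differences of 0.00 and -0.08 for VIPKO normoxia and of 0.16 and 0.13 for WT hypoxia, none of them called.

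Whether Eng and Acvrl1 moved with the endothelium as a whole was examined with 8 endothelial marker genes (Pecam1, Cdh5, Tie1, Tek, Erg, Esam, Robo4 and Egfl7), none at 0 in any library. In whole lung, fewer cells of a type and less RNA per cell cannot be told apart. The summed signal of the 8 was 40614 to 52655 in VIPKO hypoxia, 43540 to 48552 in VIPKO normoxia, 37459 to 57776 in WT hypoxia and 46701 to 62333 in WT normoxia. For VIPKO normoxia against WT normoxia 2 of the 8 were called lower (Robo4 -0.47, adjusted p = 0.0487; Tie1 -0.37, adjusted p = 0.0463), all 8 log2 fold changes were negative and their median was -0.30. Each of these 2 calls held in 6 of 20 fits with 1 library left out. For WT hypoxia 1 of 8 was called (Cdh5, VE-cadherin, -0.42, adjusted p = 0.0296; held in 13 of 20), and their median was -0.18.

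Set against the mean log2 signal of these 8 markers within each library, Eng was 0.20 ± 0.19 (SD, n = 5) in VIPKO hypoxia, 0.77 ± 0.11 (n = 4) in VIPKO normoxia, 0.41 ± 0.22 (n = 5) in WT hypoxia and 1.08 ± 0.18 (n = 6) in WT normoxia. The Eng ratio was lower by 0.67 in WT hypoxia than in WT normoxia, without overlap (2-sided exact permutation p = 0.00216, the smallest that the 462 splits allow; adjusted over 68 ratio tests, p = 0.0736). For VIPKO normoxia it was lower by 0.32 than in WT normoxia (exact p = 0.0238, adjusted p = 0.0952), and for VIPKO hypoxia it was lower by 0.56 than in VIPKO normoxia (exact p = 0.0159, adjusted p = 0.0830). The Acvrl1 ratio was 1.08 ± 0.08 in WT hypoxia and 1.28 ± 0.08 in WT normoxia (exact p = 0.00216, adjusted p = 0.0736), and 1.14 ± 0.08 in VIPKO normoxia (exact p = 0.0429 against WT normoxia, adjusted p = 0.146). None of the 68 ratio tests passed after adjustment. The smallest p that the splits allow was 0.00476 for VIPKO normoxia against WT normoxia (210 splits) and 0.00794 for VIPKO hypoxia against VIPKO normoxia (126 splits). After adjustment a ratio could pass only if several reached such floors together, so the lack of a call does not show equal ratios. The capillary marker list, which holds the receptor gene Kdr and the diaphragm gene Plvap, had 1 of 9 called lower in VIPKO normoxia, and 5 of 9 lower and 1 higher in WT hypoxia, each against WT normoxia, and its part in the Eng values was not tested.

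**Figure D3:**
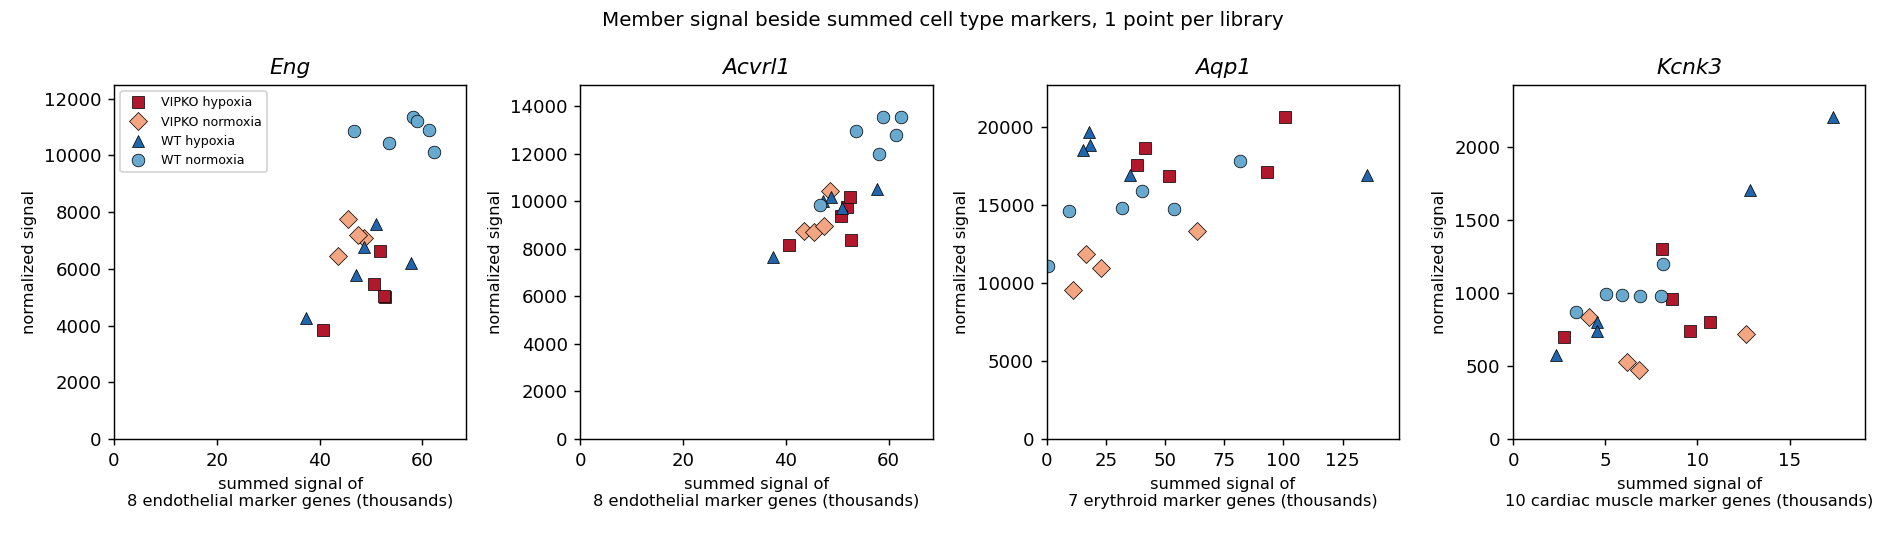
Signal of Eng, Acvrl1, Aqp1 and Kcnk3 (vertical axes, linear from 0) against the summed signal of marker genes of the cell type named on each horizontal axis (k), with 1 point per library. At like endothelial sums, Eng in WT normoxia stands above the other 3 groups, whereas Acvrl1 of WT normoxia 2 (9849) lies among them; Kcnk3 is highest in the 2 libraries of WT hypoxia with the most cardiac muscle signal (12863 and 17375).

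In the rest of the BMP pathway, the genes called in these comparisons were ligands, inhibitors and targets. Among the ligand genes, 5 of 6 were tested. Bmp6 fell in VIPKO normoxia (-0.63 ± 0.13, limma adjusted p = 0.00720) and in WT hypoxia (-0.78 ± 0.12, adjusted p = 0.00155), each against WT normoxia, in VIPKO hypoxia against VIPKO normoxia (-0.69 ± 0.13, adjusted p = 0.0114) and in VIPKO hypoxia against WT hypoxia (-0.55 ± 0.13, adjusted p = 0.0330). Its mean signal was 1612 ± 193 (SD, n = 5) in VIPKO hypoxia, 2602 ± 287 (n = 4) in VIPKO normoxia, 2374 ± 374 (n = 5) in WT hypoxia and 4066 ± 639 (n = 6) in WT normoxia, so VIPKO hypoxia was lowest and WT normoxia highest. The third was lost without VIPKO normoxia 3 (adjusted p = 0.0625), and the last held in 14 of 20 fits with 1 library left out. Bmp2 rose in VIPKO hypoxia against VIPKO normoxia (1.08 ± 0.18, adjusted p = 0.00374), and its difference in WT was 0.41 (adjusted p = 0.0915).

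None of the 6 other BMP receptor genes (Bmpr1a, Bmpr1b, Acvr1, Acvr2a, Acvr2b and Tgfbr3) and none of Smad1, Smad5 and Smad4 was called in these 4 comparisons. The receptor list had a median log2 fold change of -0.03 for VIPKO normoxia and 0.03 for WT hypoxia. Of the inhibitors, 9 of 10 were tested, and 2 fell in VIPKO normoxia and 3 in WT hypoxia. Smad6, an inhibitory SMAD that BMP signals induce, fell by 1.00 ± 0.15 (adjusted p = 0.00194) and by 1.06 ± 0.14 (adjusted p = 0.000649). Smad7, its relative, fell by 0.67 ± 0.14 (adjusted p = 0.00763) and by 0.50 ± 0.13 (adjusted p = 0.0177; lost without WT hypoxia 1, 0.0535). Smurf2, a ubiquitin ligase of the pathway, fell in WT hypoxia by 0.31 ± 0.09 (adjusted p = 0.0302, held in 17 of 20 fits with 1 library left out). In VIPKO hypoxia against WT hypoxia 1 inhibitor fell, the decoy receptor gene Bambi (-0.58 ± 0.14, adjusted p = 0.0439, held in 5 of 20 fits with 1 library left out).

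Of the classical target genes of BMP signalling, few were called. In VIPKO normoxia 1 of 7 fell, Atoh8, an endothelial transcription factor (-0.71 ± 0.10, adjusted p = 0.00194), and 0 of 7 were called in WT hypoxia, where 5 of the 7 log2 fold changes were positive. In VIPKO hypoxia against VIPKO normoxia, Atoh8 (0.67 ± 0.11, adjusted p = 0.00302) and Hey2 (1.05 ± 0.25, adjusted p = 0.0487, held in 3 of 20 fits with 1 library left out) rose. Atoh8 averaged 402 ± 46.6 (SD, n = 5) in VIPKO hypoxia, 252 ± 7.09 (n = 4) in VIPKO normoxia, 377 ± 36.8 (n = 5) in WT hypoxia and 415 ± 45.8 (n = 6) in WT normoxia. It was the pathway gene whose hypoxia effect differed between genotypes (interaction 0.81 ± 0.15, adjusted p = 0.0291, held in 12 of 20 fits with 1 library left out). Id1, the commonest readout of the pathway, had a log2 fold change of -0.43 in VIPKO normoxia (adjusted p = 0.174), of 0.25 in WT hypoxia (adjusted p = 0.357) and of 0.78 for hypoxia in VIPKO (adjusted p = 0.0739).

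**Figure D4:**
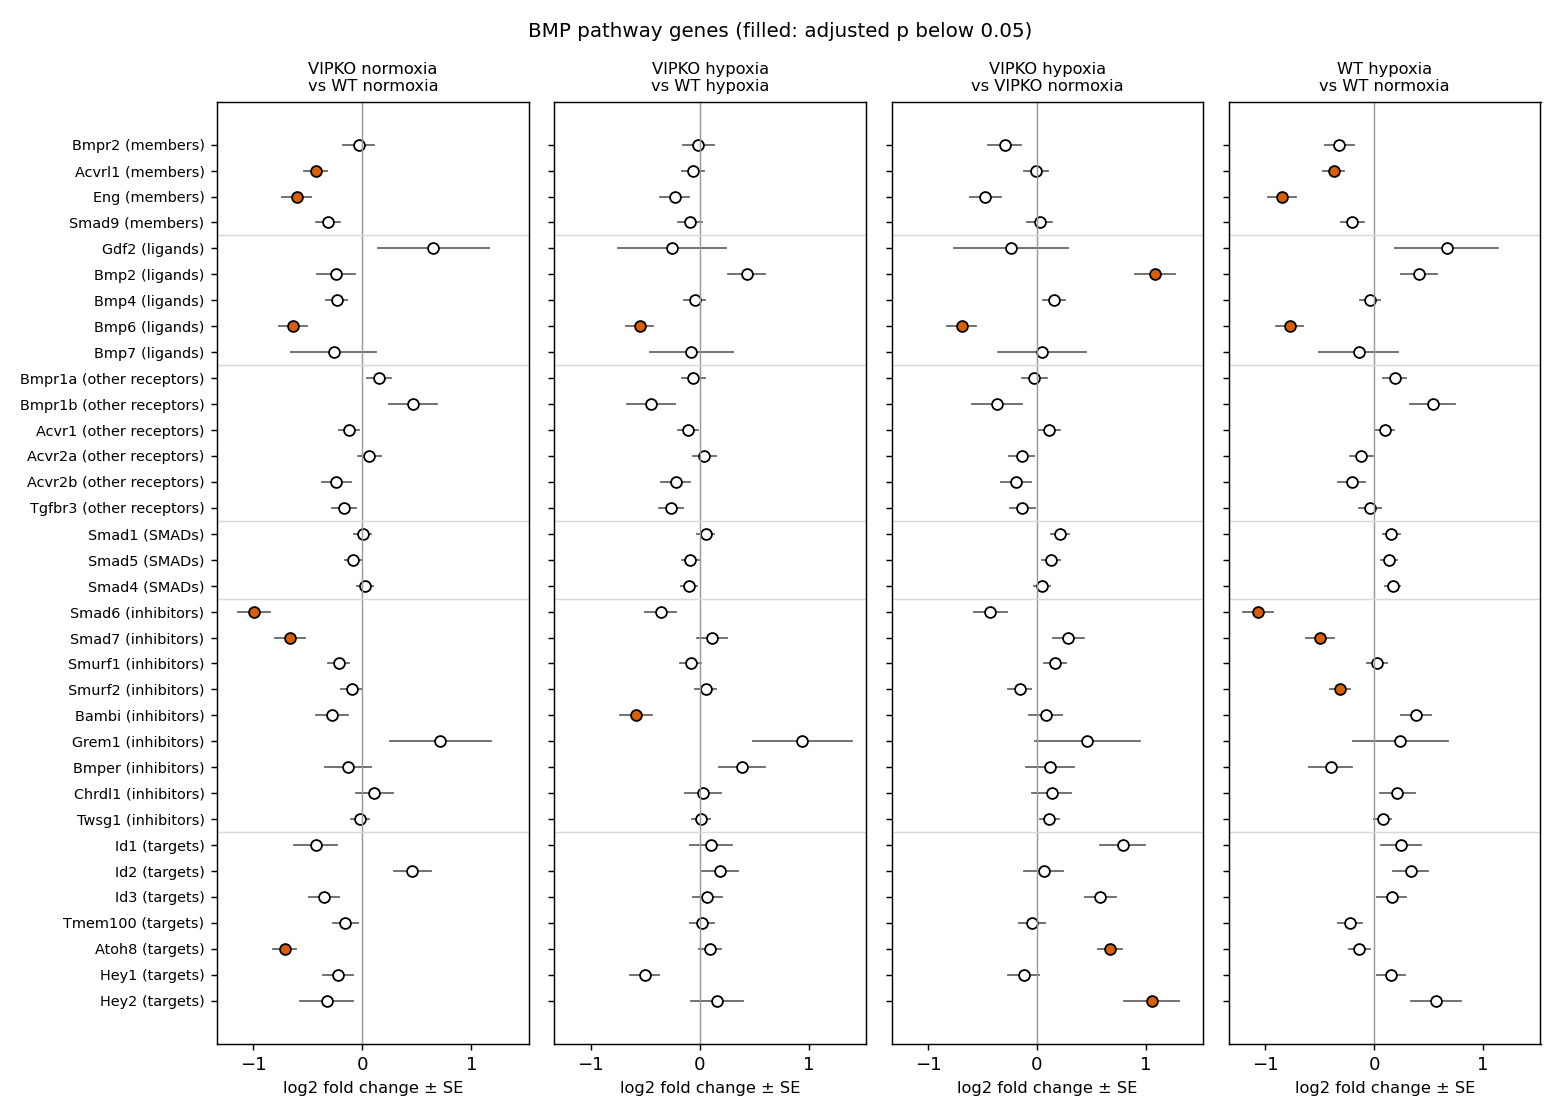
Log2 fold change ± SE of the 4 member genes of the BMP route and of its other ligands, receptors, SMADs, inhibitors and target genes in 4 comparisons; filled dots passed an adjusted p of 0.05 in limma's test. Eng, Acvrl1, Bmp6, Smad6 and Smad7 are filled on the left side for VIPKO normoxia and for WT hypoxia, each against WT normoxia, while the other receptors and SMADs are open in all 4 panels.

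Aqp1 codes for the water channel of lung capillary endothelium and of red cells (chromosome 6, 55336432 to 55348555, plus strand), and it was the gene called higher in hypoxia, in VIPKO. Its signal was 20637, 16852, 18638, 17568 and 17144 in VIPKO hypoxia libraries 1 to 5, and 11876, 10989, 9539 and 13361 in VIPKO normoxia libraries 1 to 4. WT hypoxia libraries 1 to 5 had 16896, 19698, 18847, 16913 and 18538, and WT normoxia had 11069 at the lowest, 14778 in the median and 17827 at the highest. All 5 VIPKO hypoxia libraries lay above all 4 VIPKO normoxia libraries, as did all 5 WT hypoxia libraries, and the 2 hypoxia groups covered nearly the same range. It was the 1 of the 10 genes without overlap in each of these comparisons. Of all genes, 2.70% were higher without overlap in VIPKO hypoxia against VIPKO normoxia (5.13% in either direction), and 7.63% lower without overlap in VIPKO normoxia against WT hypoxia (14.7% in either direction). Between VIPKO hypoxia and WT hypoxia 0 of the 10 did not overlap, where 3.76% of all genes did not.

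Aqp1 rose by 0.67 ± 0.12 on the log2 scale in VIPKO hypoxia against VIPKO normoxia, a signal 1.60-fold higher (limma, adjusted p = 0.00509). It fell by 0.68 ± 0.12 in VIPKO normoxia against WT hypoxia (1.60-fold lower, adjusted p = 0.00413). In WT, hypoxia gave 0.31 ± 0.11 (adjusted p = 0.0563), and VIPKO hypoxia against WT hypoxia gave -0.00 (95% interval -0.23 to 0.23). In VIPKO normoxia against WT normoxia Aqp1 fell by 0.37 ± 0.11 (1.29-fold lower, adjusted p = 0.0464), a call that held in 5 of 20 fits with 1 library left out. Without VIPKO normoxia 2 and 3 and VIPKO hypoxia 2, the rise in VIPKO was 0.55 (adjusted p = 0.209). The difference between the hypoxia effects in VIPKO and in WT was 0.37 ± 0.16 (adjusted p = 0.298).

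Because red cells carry Aqp1, the 7 erythroid genes were summed beside it. Their sum was 38241 to 100683 in VIPKO hypoxia, 10904 to 63592 in VIPKO normoxia, 15141 to 135338 in WT hypoxia and 589 to 81711 in WT normoxia. In VIPKO hypoxia against VIPKO normoxia all 7 erythroid genes had a positive log2 fold change (median 1.17, beside -0.01 over all genes) and 0 were called, as in the other 3 comparisons. In 3 groups the library with the highest erythroid sum also had the highest Aqp1: VIPKO hypoxia 1 (20637), VIPKO normoxia 4 (13361) and WT normoxia 5 (17827). The lowest of both also fell together in VIPKO normoxia 3 (9539) and WT normoxia 2 (11069). They did not in VIPKO hypoxia, where library 4 had the lowest erythroid sum (38241, Aqp1 17568) and library 2 the lowest Aqp1 (16852, erythroid sum 51706). In WT hypoxia, Aqp1 was 16913 in library 4 with the highest erythroid sum and 18538 in library 5 with the lowest. The part of red cells in the Aqp1 values was not tested. Set against the 8 endothelial markers, the Aqp1 ratio was 2.03 ± 0.21 in VIPKO hypoxia and 1.44 ± 0.17 in VIPKO normoxia, without overlap (exact permutation p = 0.00794, the smallest that the 126 splits allow, adjusted p = 0.0810). It was 2.00 ± 0.22 in WT hypoxia and 1.52 ± 0.17 in WT normoxia (exact p = 0.00649, adjusted p = 0.0810). Of the other aquaporin genes, 6 of 11 were tested and 1 was called, Aqp4 in WT hypoxia (0.90 ± 0.26, adjusted p = 0.0282). That call held in 17 of 20 fits with 1 library left out. Aqp5, the channel of alveolar type 1 cells, had differences of 0.12 for hypoxia in VIPKO and 0.20 in WT, neither called.

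Kcnk3, the gene of the tandem-pore potassium channel TASK-1 (chromosome 5, 30588170 to 30625271, plus strand), had the widest spread of the 10 genes and no call. Its signal was 1302, 802, 700, 738 and 961 in VIPKO hypoxia libraries 1 to 5, and 835, 475, 720 and 528 in VIPKO normoxia libraries 1 to 4. WT hypoxia libraries 1 to 5 had 573, 802, 740, 1702 and 2202, and WT normoxia had 868 at the lowest, 984 in the median and 1195 at the highest. All 4 VIPKO normoxia libraries lay below all 6 WT normoxia libraries, yet the log2 difference of -0.68 ± 0.28 did not pass when all 20 libraries set the spread (limma, adjusted p = 0.141). It passed when the fit held these 2 groups only (adjusted p = 0.0176) and with library weights (-0.78, adjusted p = 0.0210). The hypoxia difference in WT was 0.08 ± 0.27 and changed sign without WT hypoxia 4 (-0.10, adjusted p = 0.822) or WT hypoxia 5 (-0.19, adjusted p = 0.619).

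TASK-1 is also a channel of heart muscle, and the lung vein walls of mice hold cardiac muscle cells. The summed signal of 10 cardiac muscle genes was 12863 in WT hypoxia 4 and 17375 in WT hypoxia 5, the 2 libraries with the highest Kcnk3, and at most 12622 in the other 18 libraries. VIPKO normoxia 3 had a sum of 12622 with a Kcnk3 signal of 720. Other muscle lists were also high in the same libraries. The sum of 7 smooth muscle genes was 18986 in WT hypoxia 4, the highest of the 20, and 15992 in WT hypoxia 5, against 17810 in WT normoxia 1, which had the next highest. The sum of 7 pericyte genes was highest in WT hypoxia 4 (18331), and WT hypoxia 5 held the skeletal muscle sum of 34709. None of the 10 cardiac genes was at 0 in any library or called in the 4 comparisons, and the part of any of these muscle and pericyte markers in the Kcnk3 values was not tested. Of the other tandem-pore channel genes, 7 of 13 were tested and 0 were called in the 4 comparisons, with Kcnk5 at -0.33 (adjusted p = 0.123) and Kcnk6 at -0.25 (adjusted p = 0.126) in VIPKO normoxia. Exons of Kcnk3 share 229 bases, or 5.76%, with an opposite-strand gene model.

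Cav1, the scaffold protein of caveolae (chromosome 6, 17306335 to 17341452, plus strand), was the steadiest of the abundant genes. Its mean signal was 16911 ± 2469 (SD, n = 5) in VIPKO hypoxia, 15174 ± 2325 (n = 4) in VIPKO normoxia, 16954 ± 1607 (n = 5) in WT hypoxia and 15596 ± 1836 (n = 6) in WT normoxia. The log2 differences were -0.04 for VIPKO normoxia (95% interval -0.29 to 0.20), 0.12 for WT hypoxia (-0.10 to 0.35) and -0.01 for VIPKO hypoxia against WT hypoxia (-0.25 to 0.23). Of 9 other caveolar genes, Ehd2, an ATPase at the caveolar neck, fell in VIPKO normoxia (-0.37 ± 0.09, limma adjusted p = 0.0187), and Cavin3, a coat protein, rose in VIPKO hypoxia against VIPKO normoxia (0.53 ± 0.11, adjusted p = 0.0194). These calls held in 18 and 17 of 20 fits with 1 library left out.

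Tbx4, a transcription factor of lung mesenchyme (chromosome 11, 85886422 to 85916097, plus strand), had a signal of 1092 to 1716 in VIPKO hypoxia, 1381 to 1775 in VIPKO normoxia, 1024 to 1776 in WT hypoxia and 1589 to 2048 in WT normoxia. Its log2 differences from WT normoxia were -0.30 ± 0.13 for VIPKO hypoxia (limma adjusted p = 0.122), -0.21 ± 0.13 for VIPKO normoxia (adjusted p = 0.346) and -0.32 ± 0.13 for WT hypoxia (adjusted p = 0.0912), and none was called. The WT hypoxia difference was called in 2 of 33 alternative fits (lowest adjusted p = 0.0158). Of 8 other T-box genes tested, Tbx2 and Tbx3, mesenchymal relatives, fell in WT hypoxia (-0.55 ± 0.14, adjusted p = 0.0157, and -0.77 ± 0.14, adjusted p = 0.00362). In VIPKO normoxia Tbx2 fell by 0.59 ± 0.15 (adjusted p = 0.0194, held in 17 of 20 fits with 1 library left out) and Tbx3 by 0.50 ± 0.15 (adjusted p = 0.0460, held in 8 of 20). Tbx1 rose in WT hypoxia (0.78 ± 0.13, adjusted p = 0.00244).

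Atp13a3, a membrane ATPase that moves polyamines (chromosome 16, 30312423 to 30405975, minus strand), was called in no comparison, and its 3 log2 differences from WT normoxia were positive. Its signal was 6224 to 7049 in VIPKO hypoxia, 5485 to 8085 in VIPKO normoxia, 4124 to 7207 in WT hypoxia and 4230 to 6978 in WT normoxia. The log2 differences from WT normoxia were 0.35 ± 0.15 for VIPKO hypoxia (limma adjusted p = 0.120), 0.39 ± 0.15 for VIPKO normoxia (adjusted p = 0.118) and 0.22 ± 0.15 for WT hypoxia (adjusted p = 0.298). All 3 were called with library weights. The first 2 were then 0.44 (adjusted p = 0.0115) and 0.53 (adjusted p = 0.00411), and the third had an adjusted p of 0.0144. Its lysosomal relative Atp13a2 fell in VIPKO normoxia (-0.43 ± 0.10, adjusted p = 0.0108; lost without VIPKO normoxia 4, 0.0603). Of 10 genes of polyamine metabolism, Sat1, an acetyltransferase of polyamines, rose in VIPKO normoxia (0.40 ± 0.11, adjusted p = 0.0278, held in 15 of 20), and Odc1, which makes putrescine, rose in WT hypoxia (0.39 ± 0.12, adjusted p = 0.0418, held in 12 of 20).

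Eif2ak4 codes for GCN2, a kinase that senses uncharged transfer RNA and, when lost, causes the venous form of the disease (chromosome 2, 118388618 to 118475234, plus strand). Its signal was 484 to 706 in VIPKO hypoxia, 605 to 717 in VIPKO normoxia, 552 to 663 in WT hypoxia and 578 to 679 in WT normoxia. The log2 difference was 0.03 for VIPKO normoxia (95% interval -0.17 to 0.24) and -0.05 for WT hypoxia (-0.24 to 0.14), each against WT normoxia, and -0.19 for hypoxia in VIPKO (-0.41 to 0.02). Its partner Gcn1 fell in VIPKO normoxia (-0.40 ± 0.11, limma adjusted p = 0.0277, held in 14 of 20 fits with 1 library left out). Of 13 genes that the kinase's pathway switches on, Sesn2 (0.65 ± 0.14, adjusted p = 0.00851) and Trib3 (0.85 ± 0.22, adjusted p = 0.0165; lost without WT hypoxia 3, 0.0528) rose in WT hypoxia, and 0 were called for hypoxia in VIPKO.

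The interaction, which asks whether hypoxia acted differently in VIPKO and WT lungs, called 0 of the 10 genes with limma, where 0.282% of all genes were called. At an unadjusted p under 0.05 there were 2, Acvrl1 (0.36 ± 0.15, adjusted p = 0.268) and Aqp1 (0.37 ± 0.16, adjusted p = 0.298), and the value of Eng was 0.37 ± 0.19 (adjusted p = 0.373). With library weights 2 were called, Acvrl1 (0.49, adjusted p = 0.0195) and Eng (0.54, adjusted p = 0.0448), where 2228 of the 21658 genes tested were called. The calls of Eng and Acvrl1 for hypoxia in WT and their absence in VIPKO are thus not shown to differ in the fit with equal weights.

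Across the 20 libraries, which share group and library, genes most like 9 of the 10 by Pearson's r of log2 signal are given as a description. Eng went most closely with Smad6 (r = 0.96, and 0.81 after each group's mean was taken off). Bmpr2 went with the activin receptor gene Acvr2a (0.90 and 0.94), Tbx4 with Gucy1a1, a subunit of the nitric oxide receptor (0.91 and 0.90), and Aqp1 with Slc9a3r2, a scaffold protein (0.91 and 0.88). Acvrl1 went with Cbfa2t3 (0.87 and 0.67), Cav1 with Rnf19a (0.89 and 0.88), Eif2ak4 with Tcaf3 (0.89 and 0.85) and Smad9 with Wipf2 (0.87 and 0.79). Kcnk3 went with Lrfn3 (0.86 and 0.80) and with the skeletal muscle myosin kinase gene Mylk2 (0.86 and 0.87, Spearman's rho 0.68). WT hypoxia 5, with the highest Kcnk3 (2202), also held the skeletal muscle sum of 34709. The part of that library in these r was not tested. Among the 10 genes, the closest pair was Acvrl1 and Eng (0.80, and 0.49 within groups), followed by Eng and Tbx4 (0.78 and 0.82), and the most opposed pair was Kcnk3 and Atp13a3 (-0.66 and -0.65).

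Another 17 genes have been linked to the disease in panels of lesser or later evidence, 5 of them BMP pathway genes, and 15 were tested. In VIPKO normoxia against WT normoxia 1 was called, Ggcx, which makes the carboxyl form of clotting proteins (-0.23 ± 0.06, limma adjusted p = 0.0222). This call held in 17 of 20 fits with 1 library left out. In WT hypoxia 3 were called: the VEGF receptor gene Kdr fell by 0.57 ± 0.12 (adjusted p = 0.00756), the matrix gene Thbs1 fell by 0.86 ± 0.21 (adjusted p = 0.0154), and the matrix gene Fbln2 rose by 0.70 ± 0.19 (adjusted p = 0.0221; lost without WT hypoxia 5, 0.0546). Fbln2 was the 1 called in VIPKO hypoxia against VIPKO normoxia (1.17 ± 0.21, adjusted p = 0.00690), with a mean signal of 887 ± 127 (SD, n = 5) in VIPKO hypoxia and 394 ± 68.9 (n = 4) in VIPKO normoxia. None of the 15 was called in VIPKO hypoxia against WT hypoxia. The median log2 fold change of the 15 genes was 0.00, -0.06 and 0.05 in the first 3 of these comparisons.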

How the data were processed

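Whole-lung RNA was extracted with the RNeasy Mini Plus kit and made into directional libraries, per the labels' protocols, and processed in Partek against mm10, per the submitters' processing notes. The deposited table holds a normalized signal per gene for 20 libraries; which aligner, counting strand and normalization were used is not stated in the sources. Of 30746 lines, 55 named no gene (at most 0.0187% of the signal) and were dropped. A library's most frequent low value above 0, taken as 1 read, gave its depth. In 19 libraries 82.2% to 89.1% of values up to 20 reads lay within 0.05 reads of a whole number, but 41.2% in VIPKO hypoxia 2. There 81.2% lay near a whole number or midway between whole numbers. The value taken as 1 read may thus be too large in that library and its depth too low, and no count model was run.

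Signals were tested as log2(signal + 1), which understates folds of low genes. The 21658 lines (37 repeating a name) with a signal of 10 or more in 4 or more libraries entered 1 fit of 4 group means (limma 3.58.1 in R 4.3.3, variance trend, Benjamini-Hochberg over all lines, threshold 0.05), which was tested on simulated data. Ratios within a library were compared by 2-sided exact permutation tests. Python 3.11.15 with numpy 2.4.6, matplotlib 3.10.9 and pandas 2.3.3 served for the rest. Positions and exon lengths are from GENCODE vM21 (GRCm38), upstream sequences from RefSeq (GRCm38.p6; 7 of 10 genes matched by symbol).

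The genes, lists and tests were chosen with earlier results of these data known. All 10 genes are named, up to 4 called genes per list and comparison by smallest p (or up to 2 as values), and of the 3 genes most like each by r (no unnamed models, pseudogenes or immune receptor segments) those given; some are not reported here. Alternatives covered pseudocount, filter, scaling, variance trend, library weights, the replicate number as a block and libraries left out.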

Additional observations from a re-analysis of the deposited data

Results flagged for a closer look

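In 3 of 40 sets of values (each of the 10 genes in each of the 4 groups), 1 library stood apart from the rest of its group by Dixon's test at the 95% level, and chance alone flags about 1 in 20 such sets. Acvrl1 was 10442 in VIPKO normoxia 1, against 8700 to 8966 in the other 3 libraries of that group. Acvrl1 was 7677 in WT hypoxia 1, where the nearest other library had 9725; that library also had the lowest endothelial marker sum of all 20, 37459, and the call of Acvrl1 for hypoxia in WT was lost without it (limma, adjusted p = 0.0574). Cav1 was 19215 in WT normoxia 5, where the nearest other library had 15457, and no Cav1 comparison was called with or without it.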

How the results depend on the processing

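Of 1400 log2 fold changes refitted without 1 library, 20 lost and 8 gained a call and 49 changed sign; of 900 under other settings, 13 lost, 16 gained and 33 changed sign. All sign changes were of values not called, at most 0.26 in size at first. The cause was not tested. Members called were 4 under quantile normalization for WT hypoxia and for VIPKO hypoxia, each against WT normoxia, beside 2822 and 2942 of the 21658 genes tested. Library weights called 6 (VIPKO normoxia against WT normoxia), 5 (WT hypoxia against WT normoxia), 4 (VIPKO hypoxia against WT normoxia) and 2 (interaction). Same-numbered libraries of different groups, with group means taken off, had r of -0.29 to 0.41 (27 pairs, median -0.02, 7 above 0.1). Differently numbered pairs were not compared, so pairing by replicate number was not settled. The replicate block left 0 called for VIPKO normoxia and 1 for WT hypoxia against WT normoxia, beside 682 and 1544 of all genes (1873 and 3173 without the block). Without VIPKO normoxia 2 and 3 and VIPKO hypoxia 2, 0 were called for VIPKO normoxia against WT normoxia, VIPKO hypoxia against VIPKO normoxia and VIPKO normoxia against WT hypoxia, with 0, 45 and 0 of all genes (1873, 216 and 2552 otherwise). Over all genes library weights called 5448, 6590, 717, 1926, 4684, 4569 and 2228, against 1873, 3173, 216, 350, 2666, 2552 and 61 (VIPKO normoxia and WT hypoxia against WT normoxia, VIPKO hypoxia against VIPKO normoxia, WT hypoxia and WT normoxia, VIPKO normoxia against WT hypoxia, interaction). Genes without overlap numbered 3, 3, 3 and 2 under quantile normalization (WT hypoxia against WT normoxia, VIPKO hypoxia against VIPKO normoxia and WT normoxia, VIPKO normoxia against WT hypoxia), and 3 and 2 in the second and last of these without the 3 libraries. Over all genes, counts without overlap were made under the main settings only. With 1 library left out, members called were 0 to 3 (VIPKO normoxia against WT normoxia) and 1 to 4 (WT hypoxia against WT normoxia). They were 2 to 4 for VIPKO hypoxia against WT normoxia and 1 to 2 for VIPKO normoxia against WT hypoxia. Over all genes, the same fits called 359 to 2551, 1382 to 4710, 1356 to 3129 and 565 to 3263 in this order. Calls over all genes thus also changed with the library left out, and the member ranges are not specific to the members. Members without overlap numbered 2 to 4, 1 to 2, 1 to 4 and 1 to 2 in the same order. They numbered 1 to 2 for VIPKO hypoxia against VIPKO normoxia, and these counts have no share over all genes beside them.

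The sign changes by setting, as log2 differences, were these. TMM rescaling gave 0.0052 for Acvrl1 (VIPKO hypoxia against VIPKO normoxia) and -0.0058 for Tbx4 (VIPKO hypoxia against WT hypoxia). Quantile normalization gave -0.0031 for Kcnk3 (WT hypoxia against WT normoxia), -0.0068 for Smad9 (VIPKO hypoxia against VIPKO normoxia), -0.0031 for Cav1 (VIPKO hypoxia against WT normoxia), 0.077 for Acvrl1 (VIPKO normoxia against WT hypoxia) and -0.062 for Cav1 (interaction). Library weights gave 0.029 for Bmpr2 (VIPKO normoxia against WT normoxia), -0.13 for Kcnk3 (WT hypoxia against WT normoxia), 0.051 for Acvrl1 and 0.049 for Tbx4 (VIPKO hypoxia against VIPKO normoxia) and 0.098 for Bmpr2 and 0.049 for Kcnk3 (VIPKO hypoxia against WT hypoxia). The replicate block gave 0.0056 for Bmpr2 and -0.0012 for Eif2ak4 (VIPKO normoxia against WT normoxia) and -0.019 for Bmpr2 and -0.0082 for Cav1 (interaction). Leaving out WT hypoxia 5 and VIPKO hypoxia 3 gave -0.19 for Kcnk3 (WT hypoxia against WT normoxia), 0.032 for Acvrl1 and 0.019 for Tbx4 (VIPKO hypoxia against VIPKO normoxia) and 0.13 for Bmpr2, 0.068 for Cav1 and 0.089 for Kcnk3 (VIPKO hypoxia against WT hypoxia). Leaving out the 3 libraries low on the first component gave 0.054 for Bmpr2, 0.093 for Cav1 and -0.064 for Eif2ak4 (VIPKO normoxia against WT normoxia), -0.038 for Smad9 (VIPKO hypoxia against VIPKO normoxia), 0.00078 for Cav1 and 0.024 for Aqp1 (VIPKO hypoxia against WT hypoxia), 0.017 for Acvrl1 and -0.012 for Eif2ak4 (VIPKO normoxia against WT hypoxia) and -0.066 for Bmpr2 and -0.093 for Cav1 (interaction).

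With 1 library left out, the differences that changed sign covered these ranges. For VIPKO hypoxia against VIPKO normoxia they ran -0.047 to 0.053 for Acvrl1, -0.15 to 0.039 for Atp13a3, -0.022 to 0.089 for Smad9 and -0.15 to 0.019 for Tbx4. For VIPKO hypoxia against WT hypoxia they ran -0.049 to 0.027 for Aqp1, -0.010 to 0.19 for Atp13a3, -0.100 to 0.12 for Bmpr2, -0.079 to 0.051 for Cav1, -0.48 to 0.0072 for Kcnk3 and -0.11 to 0.12 for Tbx4. For VIPKO normoxia against WT normoxia they ran -0.091 to 0.032 for Bmpr2, -0.14 to 0.023 for Cav1 and -0.015 to 0.066 for Eif2ak4. For the interaction they ran -0.064 to 0.16 for Bmpr2 and -0.035 to 0.13 for Cav1. For WT hypoxia against WT normoxia they ran -0.19 to 0.29 for Kcnk3. For VIPKO normoxia against WT hypoxia they ran -0.022 to 0.18 for Tbx4. Fitting the compared groups alone was not run for the interaction. Depth limited Smad9 and Eif2ak4 most, with counting error of about 10.1% and 7.72% in WT hypoxia 4.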
